A study of Bos taurus with 14 samples.

Results

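The family of miR-148 and its relatives comprises bta-miR-148a, bta-miR-148b and bta-miR-152, and its members were sought by name, with any arm suffix and every precursor, among 350 lines of miRNA/precursor pairs with 268 mature names. The rule matched 1 line, miR-148a/mir-148a, a mature miRNA of 22 nt, so that 1 of the 3 members is described. miR-148b and miR-152 were not analysed here. The samples were milk small extracellular vesicles (sEVs) from 14 Holstein cows with subclinical mastitis, an udder inflammation without visible signs, 7 of them in the control group and 7 given inulin. All cows received the same total mixed ration, and those of the inulin group also received 300 g/d of inulin, a fermentable plant fiber, for 5 wk after 1 wk of adaptation. Milk from the milkings of the last day was mixed into 1 sample per cow, and healthy cows were not part of the design. Depth differed widely, with total miRNA counts between 4165 and 415020 and medians of 72277 (control) and 112974 (inulin).

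A miRNA guides the silencing complex to messenger RNA that pairs with its seed, the bases near its 5ʹ end, and members of a family share that seed and therefore many targets. The miR-148 family is known for repressing the DNA methyltransferase DNMT1, and miR-148a also for repressing the low-density lipoprotein receptor and the cholesterol exporter ABCA1. In mammary epithelium miR-148a is known as a lactation miRNA, and it is commonly reported as a leading miRNA of milk, where vesicles protect it from degradation.

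The precursor gene of miR-148a lies between protein-coding genes in RefSeq (assembly ARS-UCD2.0), and no protein-coding gene spans it. Its nearest protein-coding neighbors are NFE2L3, a transcription factor gene, and NPVF, a neuropeptide gene. Some neighbors of the family loci belong to the same gene families. The 4 protein-coding genes within 300 kb of MIR148A are SNX10, CBX3, HNRNPA2B1 and NFE2L3. MIR148B lies within COPZ1, and the 19 genes in its window include NFE2, HNRNPA1 and CBX5. MIR152 lies within COPZ2, and the 15 genes in its window include SNX11, CBX1 and NFE2L1. These genes were picked after the windows were seen, and most others in both larger windows have no counterpart at MIR148A. The CBX genes encode heterochromatin proteins, and the COPZ genes encode coat subunits of transport vesicles. The annotation places another miRNA gene, MIR148D, over MIR148A, and MIR148C over MIR152, and reads of MIR148A and MIR148D were not separated here. No positions are given because the processing notes name another assembly, ARS-UCD1.2.

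In these libraries miR-148a was a low and unevenly detected miRNA. It had 72 counts over all cows, which was 0.00432% of all miRNA counts, and at least 1 count in 9 of the 14 cows. Levels are given as CPM, the counts of a cow scaled to a total of 1000000, and each interval is a 95% Wilson interval that covers counting error only. In the control group, cow 3 had the highest level, with 12 counts and 166 CPM (interval 94.98 to 290.2). Cow 1 followed with 8 counts and 108 CPM (interval 54.6 to 213), and cow 4 with 12 counts and 67.7 CPM (interval 38.7 to 118). The values of these cows lay above those of the other 4 in their group.

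Control cow 6 had a single count and 33.1 CPM, with an interval from 5.84 to 187. Control cow 5 had by far the most reads, yet only 8 counts of miR-148a, and its 19.3 CPM (interval 9.77 to 38.0) lay below the whole interval of control cow 3. Control cows 2 and 7 had 0 counts. With totals of 4165 and 23155, 3 counts, the limit that a count of 0 allows, were 720 and 130 CPM. The Wilson intervals ended at 921 and 166 CPM, so that the 0 of either cow does not exclude a level like that of cow 1.

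In the inulin group, cow 7 stood highest of all cows, with 13 counts and 173 CPM (interval 101 to 296). Cow 1 had 11 counts and 57.9 CPM (interval 32.3 to 104), cow 6 had 6 counts and 22.6 CPM (interval 10.4 to 49.4), and cow 2 had 1 count and 5.68 CPM (interval 1.00 to 32.2). The other cows of the group had 0 counts. For cows 3 and 4, 3 counts were 85.8 and 202 CPM, whereas for cow 5, with a total of 112974, they were 26.6 CPM. The interval of inulin cow 5 ended at 34.0 CPM, below the intervals of control cows 1, 3 and 4 and of inulin cow 7, and the groups overlapped over most of their range.

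**Figure D1:**
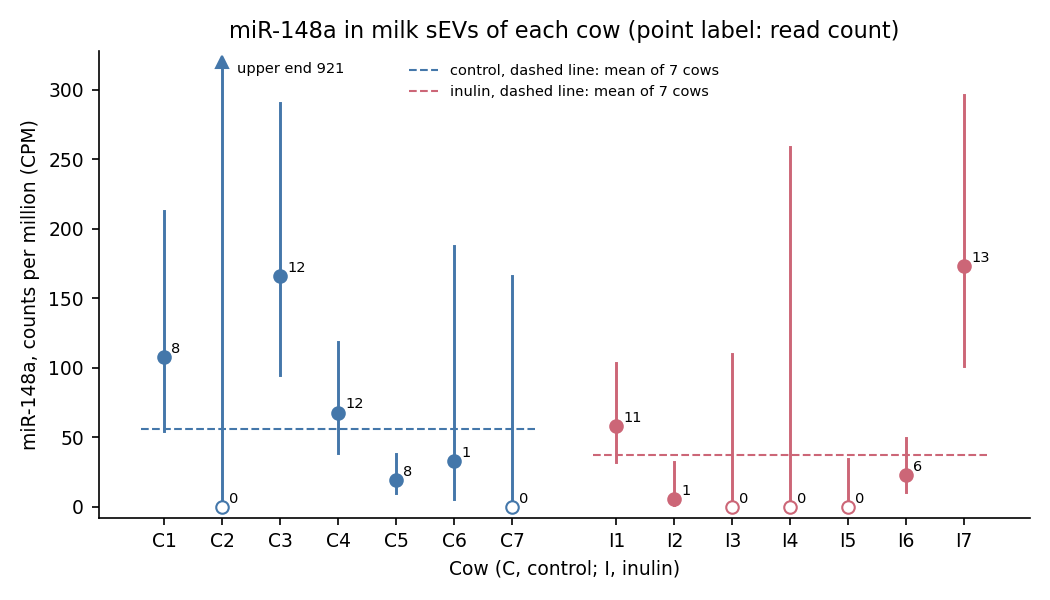
The level of miR-148a in CPM (vertical axis) is plotted for each control cow (C1 to C7, blue) and inulin cow (I1 to I7, red), with 95% Wilson intervals as bars, the read count beside each point, open points for 0 counts and dashed lines for the group means of 56.3 and 37.0 CPM. The highest cow of each group lies near 170 CPM, and 2 control cows and 3 inulin cows lie at 0.

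Depth and detection went together in part. Cows with a count had totals from 30225 to 415020 with a median of 176076, and cows at 0 had totals from 4165 to 112974 with a median of 23155. The log10 of the miR-148a count plus 1 rose with the log10 of the total over the 14 cows, with a Pearson's r of 0.648 (permutation p = 0.0118, adjusted p = 0.0286). Spearman's rho was 0.557 and did not pass after adjustment (permutation p = 0.0421, adjusted p = 0.0952). Without control cow 5 and inulin cow 6, the cows farthest from the median total, r was 0.609 (permutation p = 0.0335). Among control cows r was 0.831 (exact permutation p = 0.0190, adjusted p = 0.0286) and rho was 0.753 (exact permutation p = 0.0635, adjusted p = 0.0952). Among inulin cows r was 0.556 (exact permutation p = 0.196, adjusted p = 0.196) and rho was 0.519 (exact permutation p = 0.245, adjusted p = 0.245), so that the relation did not pass the test there. The p-values were adjusted over these 3 relations. A count drawn from a larger total is larger on average, so that these tests describe depth and are no result about miR-148a. Control cow 3, control cow 1 and inulin cow 7, with totals of 72277, 74260 and 75102, had similar counts of 12, 8 and 13. The deeper inulin cows 5 and 2, with totals of 112974 and 176076, had fewer, 0 and 1. Control cow 4 and inulin cow 1, with totals of 177212 and 189928, had 12 and 11.

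**Figure D2:**
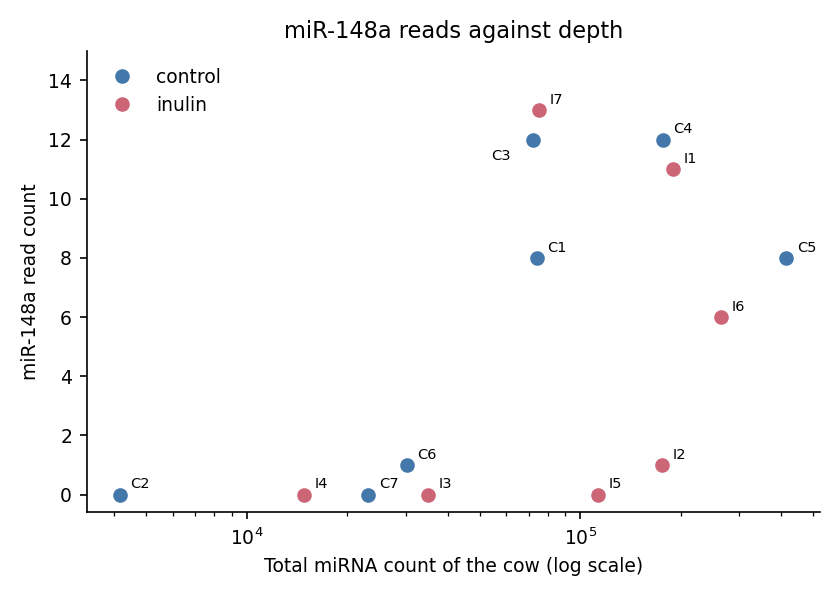
The read count of miR-148a (vertical axis) is plotted against the total miRNA count of the cow (horizontal axis, log scale) for control cows (blue) and inulin cows (red). The 4 shallowest cows with 0 counts lie at totals of 34977 or less, while inulin cow 5 lies at 0 with a total of 112974.

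Among the 268 mature names, each counted with the precursor that had the most counts, miR-148a had rank 86 by mean CPM. Its mean was 46.7 ± 61.2 CPM (SD, n = 14), so that the spread between cows exceeded the mean. By the mean of control cows alone it again had rank 86, and by that of inulin cows rank 77. In the cows with a count its rank within the cow ranged from 43, in inulin cow 7, to 123, in control cow 5, with a median of 75. The label of a milk-abundant miRNA was therefore not met by the counts of these cows.

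The miRNA often described as abundant in milk were compared with miR-148a in the same cow by an exact sign-flip permutation test of CPM, with p-values adjusted over 26 names. The list was written with earlier results of these data known. These tests therefore describe the order of the names and are no independent support for it. Of the 21 listed names, 14 were higher than miR-148a past the test, and 10 of these were higher in all 14 cows, with means from 35.8 to 3699 times that of miR-148a. The let-7 miRNA, which limit growth and repress RAS and HMGA2, stood at the top. The level of let-7a-5p was 160748 ± 35210 CPM (SD, n = 14), higher in 14 of 14 cows (exact permutation test, adjusted p = 0.000317, the smallest the test allows here). In the single cow, let-7a-5p had from 995 times the counts of miR-148a, in inulin cow 7 and control cow 3, to 36235 times, in inulin cow 2.

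Of the 6 epithelial names listed, miR-200c, miR-375 and miR-141 were above miR-148a past the test, while miR-200a and miR-200b did not pass it and miR-429, at 23.8 CPM, was not compared. The level of miR-200c, which represses the ZEB factors and so keeps cells epithelial, was 5324 ± 2193 CPM, or 114 times the mean of miR-148a (higher in 14 of 14 cows, exact permutation test, adjusted p = 0.000317, n = 14). The level of miR-375, a miRNA of secretory epithelium, was 1671 ± 1028 CPM, or 35.8 times that mean, in the same number of cows and with the same p. Other milk names in this class were miR-26a at 6215, miR-30a-5p at 2418 and miR-30d at 2261 CPM.

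The distance was smaller for miR-21-5p, a miRNA that rises in inflammation. Its level was 227 ± 255 CPM, from 0 to 976 CPM across the cows, and it was higher than miR-148a in 10 of 14 cows and lower in 2 (exact permutation test, adjusted p = 0.0137, n = 14). The miR-99a-5p level was 218 ± 216 CPM, and it was higher in 11 cows and lower in 0 (exact permutation test, adjusted p = 0.00212, n = 14).

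For 7 of the 21 listed names the difference from miR-148a did not pass the test, with adjusted p-values from 0.0677 to 0.994 (exact permutation test, n = 14). Of these, miR-22-3p, miR-29a, miR-182, miR-200a and miR-200b had means from 47.0 to 102 CPM. Both names with a mean below miR-148a were in this class, miR-183 at 21.5 ± 63.5 CPM and miR-27b at 6.33 ± 10.6 CPM (SD, n = 14). For miR-27b, which represses the fat cell regulator PPARG, the level was lower than that of miR-148a in 7 cows and higher in 1 (exact permutation test, adjusted p = 0.0677, n = 14).

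**Figure D3:**
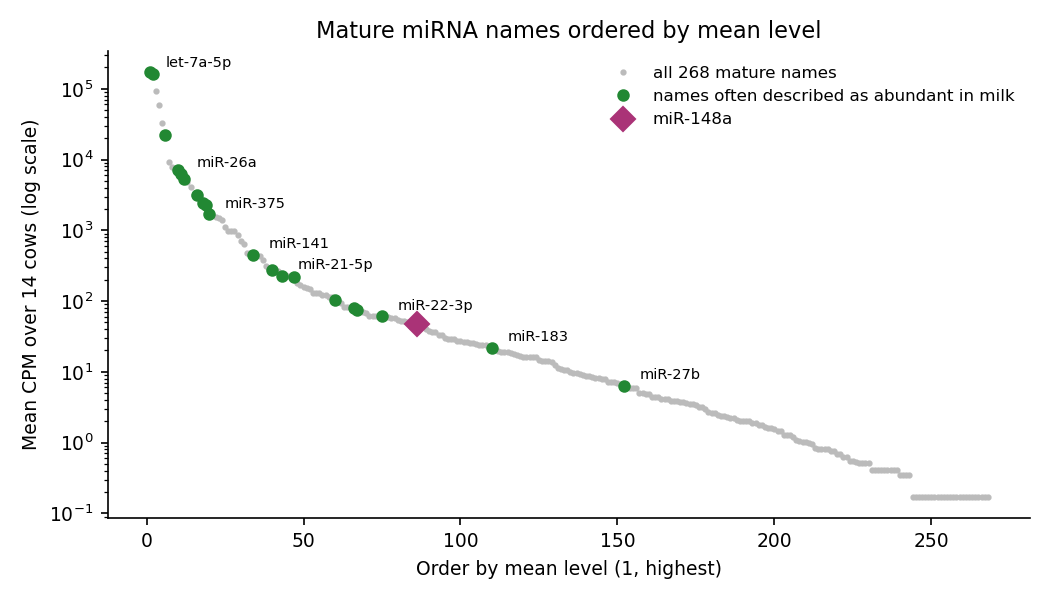
The mean CPM over 14 cows (vertical axis, log scale) is plotted in descending order for 268 mature names (grey), with the listed milk names in green and miR-148a as a purple diamond at rank 86. Most listed milk names lie above and to the left of miR-148a, with let-7a-5p near the top at 160748 CPM, while miR-183 and miR-27b lie to its right.

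The nearest names in the order were picked by their mean level, so that their closeness to miR-148a is a description. Just above it were miR-30b-3p at 51.0, miR-186 at 49.4 and miR-182 at 47.0 CPM, and just below it were miR-29c at 46.2, miR-2448-3p at 44.6 and miR-99b at 40.8 CPM. Each differed from miR-148a by less than 6 CPM on average, while the SD of the difference within a cow was between 76.6 and 103 CPM (n = 14). Detection was alike in these neighbors, with a count in 6 to 9 of the 14 cows. The coefficient of variation between cows was 1.31 for miR-148a and from 1.13 to 1.76 for the 6 neighbors.

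The diet comparison asked whether inulin changed miR-148a. Control cows had a mean level of 56.3 ± 62.0 CPM (SD, n = 7) and a median of 33.1 CPM. Inulin cows had a mean of 37.0 ± 63.6 CPM (SD, n = 7) and a median of 5.68 CPM. The difference in means was -19.2 CPM (p = 0.576 in a two-sided exact permutation test, n = 7 each). Its size did not exceed the SD of either group. With counts summed by group, 41 counts gave 51.5 CPM in control cows and 31 counts gave 35.7 CPM in inulin cows. A count was found in 5 of 7 control cows and in 4 of 7 inulin cows (Fisher's exact test, p = 1), and at least 3 counts were found in 4 and 3 cows, respectively. Of the inulin cows, 2 of 7 lay above the control median, beside 3 of 7 control cows. Each group median is the value of a cow with a single count, control cow 6 and inulin cow 2.

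In the quasi-likelihood test of edgeR across 210 pairs with at least 10 counts, the log2 fold change of miR-148a/mir-148a was -0.88, inulin over control, with a standard error of 1.08 and a 95% interval from -3.13 to 1.36 (unadjusted p = 0.422, adjusted p = 0.985 from edgeR). It was not called by the study's rule (P below 0.05 before adjustment and a log2 fold change beyond 1 in either direction). With edgeR this rule called 9.05% of the pairs tested, 2.86% higher and 6.19% lower with inulin. The study applied it with DESeq2, which here called 4.29% of the pairs. miR-148a was not among them (log2 fold change -0.93, unadjusted p = 0.432 from DESeq2). The median log2 fold change of all tested pairs was -0.40, and miR-148a lay at place 84 of 210 by p. The interval of the fold change includes no difference as well as a decrease of more than 3 on the log2 scale. In vesicle RNA of whole milk, fewer vesicles from a cell type and less of a miRNA per vesicle cannot be told apart.

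A pair of cows moved this value most. Without inulin cow 7 the log2 fold change was -1.71 (unadjusted p = 0.138, adjusted p = 0.748 from edgeR), and without control cow 3 it was -0.24 (unadjusted p = 0.832, adjusted p = 0.970 from edgeR).

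EdgeR called 0 of the 21 listed milk miRNA, beside the 9.05% called among all pairs. The smallest adjusted p was 0.528 from edgeR, and 0 names had an unadjusted p under 0.05. DESeq2 and limma-voom each called 1 of the 21, beside 4.29% and 6.67% of all pairs. Each had 2 of them at an unadjusted p under 0.05. The name called by both was miR-22-3p. Its log2 fold change was -1.98 with DESeq2 (unadjusted p = 0.0323, adjusted p = 0.816 from DESeq2). With limma-voom it was -2.09 (unadjusted p = 0.0116, adjusted p = 0.407 from limma). The study also reported this miRNA as lower with inulin. The edgeR log2 fold changes of the listed names ranged from -1.70 for miR-22-3p to 1.10 for miR-375. Of these, 11 lay above and 10 below 0, with a median of 0.01 beside -0.40 over all pairs. The best-counted names had the narrowest errors. For let-7a-5p the log2 fold change was 0.29 with a standard error of 0.226, and for miR-200c it was 0.04 with a standard error of 0.442, against the 1.08 of miR-148a.

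**Figure D4:**
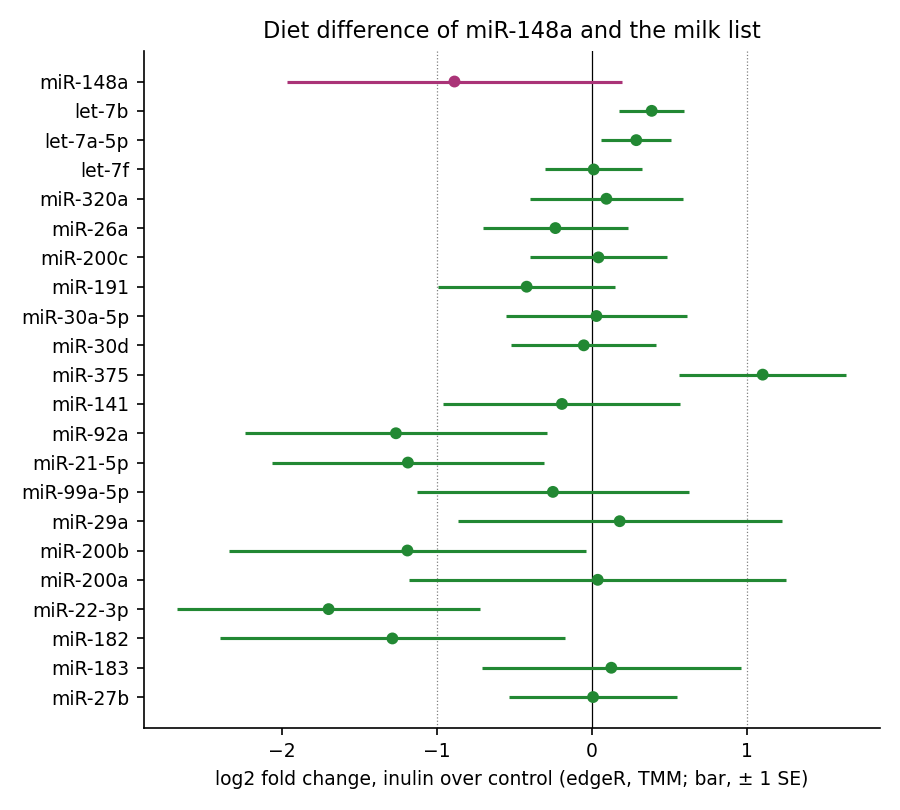
The log2 fold change of inulin over control from edgeR (horizontal axis, points, with bars of 1 standard error) is plotted for miR-148a (purple) and the 21 listed milk miRNA (green, in descending order of mean level), with dotted lines at -1 and 1. The bar of miR-148a reaches from below -1 to above 0, and bars are shorter for the abundant names at the top.

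Of the miRNA described beside miR-148a as regulators of cholesterol and lipid genes, 4 of 7 listed names were measured and 3 were tested. None was called by edgeR, DESeq2 or limma-voom, with 0 at an unadjusted p under 0.05 in each. These tools called 9.05%, 4.29% and 6.67% of all pairs, so that 0 of 3 does not set these names apart. The most counted was miR-130b, at 62.2 ± 63.2 CPM (SD, n = 14) and with a count in 10 cows. Control cows held 47 of its counts and inulin cows 52, and its log2 fold change was -0.34 ± 1.02 (SE; adjusted p = 0.985 from edgeR). The brain-enriched miR-128 had 14 counts in 4 cows. The liver miRNA miR-122 had 9 counts in 2 inulin cows and 0 in the control group, below the minimum for the test.

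The miR-29 miRNA repress the DNA methyltransferases DNMT3A and DNMT3B, as the miR-148 family does DNMT1. All 3 names listed were measured, with means of 102 CPM for miR-29a, 62.3 CPM for miR-29b and 46.2 CPM for miR-29c, so that they lay at or somewhat above the level of miR-148a. None was called by edgeR, DESeq2 or limma-voom, with 0 at an unadjusted p under 0.05 in each. Beside the 9.05%, 4.29% and 6.67% of all pairs that these tools called, 0 of 3 does not set the miR-29 names apart. Their edgeR log2 fold changes ranged from -0.95 to 0.18.

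The miRNA whose level was most like that of miR-148a over the 14 cows were miR-652, miR-28 and miR-24-3p, out of 98 names with a count in at least 7 cows. Spearman's correlation of CPM with miR-148a was 0.718, 0.653 and 0.634, respectively, which describes these cows only, and all of these miRNA share the libraries and totals of the cows. A count of miR-652 was present in 12 of the 14 cows, among them all 9 that had miR-148a. The same 9 cows also had miR-24-3p, so that this is not particular to miR-652. The level of miR-652 was highest in inulin cow 7, at 293 CPM, as was that of miR-148a. The level of miR-28 was also highest in inulin cow 7, at 93.2 CPM, and that of miR-24-3p in control cow 5, at 441 CPM. Pearson's r was 0.609 for miR-652, 0.482 for miR-28 and 0.187 for miR-24-3p, so that the likeness of miR-24-3p lay in the order of the cows and not in the size of the values.

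Lists of miRNA known from epithelium, leukocytes, erythrocytes and muscle were checked in the same libraries, which hold vesicle RNA and not cells. All 6 epithelial names were measured, and their summed level ranged from 3601 to 15527 CPM in control cows and from 6019 to 10457 CPM in inulin cows. Of 7 leukocyte names 6 were measured, with sums from 0 to 860 CPM in control cows and from 45.4 to 486 CPM in inulin cows. The erythrocyte list had 1 of 3 names measured, miR-486, at 0 in 12 of 14 cows. The muscle list had 3 of 4 names measured, mainly miR-1, and its sum ranged from 0 to 3865 CPM in control cows and from 0 to 1687 CPM in inulin cows. Of the names of these lists that could be tested, edgeR called 1, miR-142-5p among the leukocyte names, with 32 counts in 2 control cows and 0 in inulin cows (adjusted p = 0.274 from edgeR), while DESeq2 called 0 and had 0 leukocyte names at an unadjusted p under 0.05. By limma-voom 2 leukocyte names were called, miR-142-5p and miR-223, with log2 fold changes of -2.09 and -3.31 (adjusted p = 0.519 and 0.215 from limma). Limma-voom called 6.67% of all pairs. Of the 5 leukocyte names tested, 4 had an edgeR log2 fold change below 0, with a median of -1.20 beside -0.40 over all pairs, and the 1 call stands beside 9.05% of all pairs. That median is the value of miR-146b, with 18 counts in 2 cows. The name above 0 was miR-155, at 0.17, with 347 counts in 13 cows. The part of these cell type names in the level of miR-148a was not tested.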

How the data were processed

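Small RNA of milk sEVs from 14 cows (7 per group) was analysed. The authors trimmed and filtered the reads, annotated them against Rfam and miRBase, and counted them with miRDeep2. The deposited counts are reads per miRNA/precursor pair, without normalization. The deposited rpm values, which the authors scaled to a total of 1000000 per cow, differed from recomputed ones by at most 0.005 and were not used further. The deposited length in nt is another unit, of unstated source. A mature miRNA is listed with each of its precursors, so that shared reads are added repeatedly to the total and lower all CPM of that cow. Columns without a cow numbered 0. Cows are separate animals, and a number shared between groups marks no pairing.

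All pairs that reached 10 counts in sum were tested with edgeR 4.0.16 (quasi-likelihood, TMM, R 4.3.3) with Benjamini-Hochberg adjustment over all pairs. DESeq2 1.42.0, limma-voom (limma 3.58.1), other scalings and filters, 1 precursor per name, a block for the cow number and omission of single cows were alternatives. Single values used exact permutation tests over 3432 assignments of the cows (smallest p 0.000583), sign-flip tests within cows (smallest p 0.000122), Fisher's exact test, and 100000 permutations for correlations over 14 cows, all two-sided (Python 3.11.15, SciPy 1.17.1). A miRNA list by shared seed was planned and not run. Named miRNA were the members, the lists of milk, lipid, DNA methyltransferase and cell type miRNA, 3 rank neighbors on each side, and the 3 names most alike over the cows. The members and lists were chosen with earlier results of these data known.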

Additional observations from a re-analysis of the deposited data

Results flagged for a closer look

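Dixon's test for a cow far from the rest of its group was applied to 20 sets of 7 values at the 95% level. It picked 8 sets. The rate of about 1 set by chance holds for normally distributed values only. Several of these sets hold values of 0 or few counts, so that the 8 cannot be set against that rate. For miR-148a, inulin cow 7 stood at 173 CPM, with the next inulin cow at 57.9. The total count of control cow 5 was 415020, with the next control cow at 177212. The same cow had the highest sum of the miR-29 names and of the epithelial names. For the miR-29 names it was 1031 CPM, against 169 CPM in the next control cow and at most 372 CPM in inulin cows. For the epithelial names it was 15527 CPM, against 8232 CPM in the next control cow and at most 10457 CPM in inulin cows. The miR-148a level of control cow 5, 19.3 CPM, was the lowest of the control cows with a count. The muscle names, mainly miR-1, reached 3865 CPM in control cow 1, with the next control cow at 480 CPM. They reached 1687 CPM in inulin cow 4, with the next inulin cow at 31.6 CPM. The miR-148a level in these cows was 108 CPM and 0 CPM, respectively. Inulin cow 4 had a total of only 14822, where 3 counts were 202 CPM, so that its 0 sets a weak limit. The erythrocyte miRNA miR-486 was at 53.9 CPM (4 counts) in control cow 1 and 67.5 CPM (1 count) in inulin cow 4. Every other cow of both groups was at 0, where the ratio is 1 by construction.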

How the results depend on the processing

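The diet difference of miR-148a was negative and not called in all 21 alternatives, with log2 fold changes from -1.71 to -0.24. With each cow left out, the difference in CPM ranged from -41.9 to -0.922 (exact permutation p from 0.155 to 0.985), the rank from 79 to 90, and the correlation of count with total from 0.604 to 0.727. That correlation fell to 0.396 on the linear scale (permutation p = 0.163); the cause was not tested. The rank was 92 by mean count, 83 by median and 109 among pairs, and the same 14 milk names were above miR-148a in the test under each alternative. With the cow number as a replicate block the log2 fold change was -1.30 (adjusted p = 0.991 from edgeR). Same-numbered cows deviated with correlations from -0.34 to 0.27, and 2 of 14 cows correlated best with their own number. The 19 pairs called became 9 with DESeq2, 75 without a filter, 3 of 62 with filterByExpr, which removed miR-148a, and 7 with the block. With 72 counts, depth limits every statement on miR-148a.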
